A study of Homo sapiens with 12 samples.

Results

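The 10 genes described here encode transforming growth factor-beta (TGF-beta) ligands, their receptors and the SMAD proteins that carry the signal to the nucleus. They are TGFB1, TGFB2, TGFBR1, TGFBR2, TGFBR3, SMAD2, SMAD3, SMAD4, SMAD6 and SMAD7. Every probe annotated to one of them, under a current or an older symbol, was taken, which gave 15 probes among 47323 with values and 10 genes among 20046 with a named probe. Of these probes, 12 from 9 genes had a mean over all arrays at or above the median of all probes (6.52 on the deposited scale, taken here as log2) and were tested. The remaining 3 probes lay below that level and are given as values near background.

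RNA came from MDA-MB-231, a cell line from a triple-negative breast cancer with mesenchymal features, grown in medium with 10% serum. In the first group the cells received a locked nucleic acid (LNA) gapmer, an antisense oligonucleotide that directs RNase H to its target, against the long noncoding RNA CYTOR (LINC00152), and in the second a control LNA. Both groups were transfected with 30 nM LNA by lipid reagent and kept for 24 h, and the labels' protocols name no TGF-beta treatment. There were 6 Illumina bead arrays per group, 1 per sample, split by the labels into batch 1 (1 CYTOR LNA and 3 control arrays) and batch 2 (5 and 3). All arrays come from a single cell line, and the labels name a single CYTOR LNA treatment, so effects of the oligonucleotide on other RNAs and effects of lower CYTOR cannot be told apart.

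TGF-beta ligands are secreted in latent form and, once released, bind the type II receptor TGFBR2, a serine/threonine kinase that recruits and phosphorylates the type I receptor TGFBR1. TGFBR1 then phosphorylates SMAD2 and SMAD3, which join SMAD4 and enter the nucleus to regulate target genes, while SMAD6 and SMAD7 are themselves induced and restrain the pathway. In normal mammary epithelium the pathway halts growth, and in advanced breast cancer it is known for promoting invasion and metastasis. The arrays measured RNA, and neither receptor activity nor SMAD phosphorylation.

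The silenced RNA was checked first. The brightest CYTOR probe averaged 7.83 ± 0.12 (SD, n = 6) on control arrays and 6.74 ± 0.10 (SD, n = 6) on silenced ones, with no overlap of the groups. Probe ILMN_3230508 had a log2 fold change of -0.67, also without overlap. Probe ILMN_3230572, dim at means of 6.60 and 6.47, had one of -0.13 with overlap (limma adjusted p = 0.022). The line's mesenchymal markers VIM, CAV1, CD44 and AXL were bright (means of 13.3, 12.4, 11.95 and 11.8), whereas ZEB1, FN1 and SPARC lay between 6.48 and 6.58, close to the median of all probes. Of the 10 mesenchymal markers 9 were above that median, and 3 fell: PLAU (-0.27, adjusted p = 0.0025, no overlap), CD44 (-0.21, 0.034) and EGFR (-0.18, 0.040). AXL was higher (0.16, 0.22) and MSN lower (-0.15, 0.22), and neither passed. Of 11 luminal markers 8 were above that median, among them KRT8 (8.83), EPCAM (7.91), KRT18 (7.77) and KRT19 (7.39), and KRT18 rose (0.21, adjusted p = 0.011, no overlap). EPCAM was lower (-0.12, 0.18), KRT8 (0.13, 0.33) and KRT19 (0.11, 0.28) were higher, and none of these passed. CDH1, GATA3, ERBB3 and PGR, with means between 6.52 and 6.61, were close to that median, and FOXA1 (6.51) lay just below it. Of 6 fibroblast markers 2 were above it (PDGFRB at 6.81 and COL1A1 at 6.60), and neither passed the test. The luminal markers ESR1 and TFF1, the fibroblast markers COL3A1 and LUM and the leukocyte markers PTPRC and CD3E all had means between 6.42 and 6.47, below that median. Of 5 leukocyte markers with a probe 3 were above the median: CD68, which was bright (10.9), CD14 (7.87) and LYZ (6.72). CD14 rose (log2 fold change 0.33, SE 0.059, adjusted p = 0.00057), and CD68 and LYZ did not pass. The part of these marker changes, or of any other cells, in the results was not tested. Array medians ran from 6.528 to 6.532, and correlations between arrays over tested probes from 0.991 to 0.998. With 1475 of 23662 tested probes past the threshold (limma, Benjamini-Hochberg adjusted p below 0.05), 6.23% were called, 4.11% lower and 2.12% higher after the CYTOR LNA.

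Of the 12 tested probes for TGF-beta ligands, receptors and SMADs, 1 fell, none rose and 11 did not pass. The called probe detects TGFBR2, and its share of the 12, 8.33%, is near the 6.23% called among all tested probes. At an unadjusted p below 0.05 there were 3 such probes, 2 of TGFBR2 and 1 of TGFBR1, where 19.0% of all tested probes reached that level. The median log2 fold change over the 12 probes was -0.02, and over all tested probes 0.01, with 6 of the 12 lower and 6 higher. None of the 12 had groups without overlap, against 5.24% of all tested probes. Among the 11 probes that did not pass, 95% intervals of the change, which were not adjusted for the number of probes, ran from -0.26 to 0.16 on the log2 scale. Changes of the measured values larger than 1.20-fold thus lay outside the interval of every one of these 11. Some of them, such as the probes of TGFBR1 and SMAD2, were dim, and there a narrow interval may not bound the change in RNA.

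**Figure D1:**
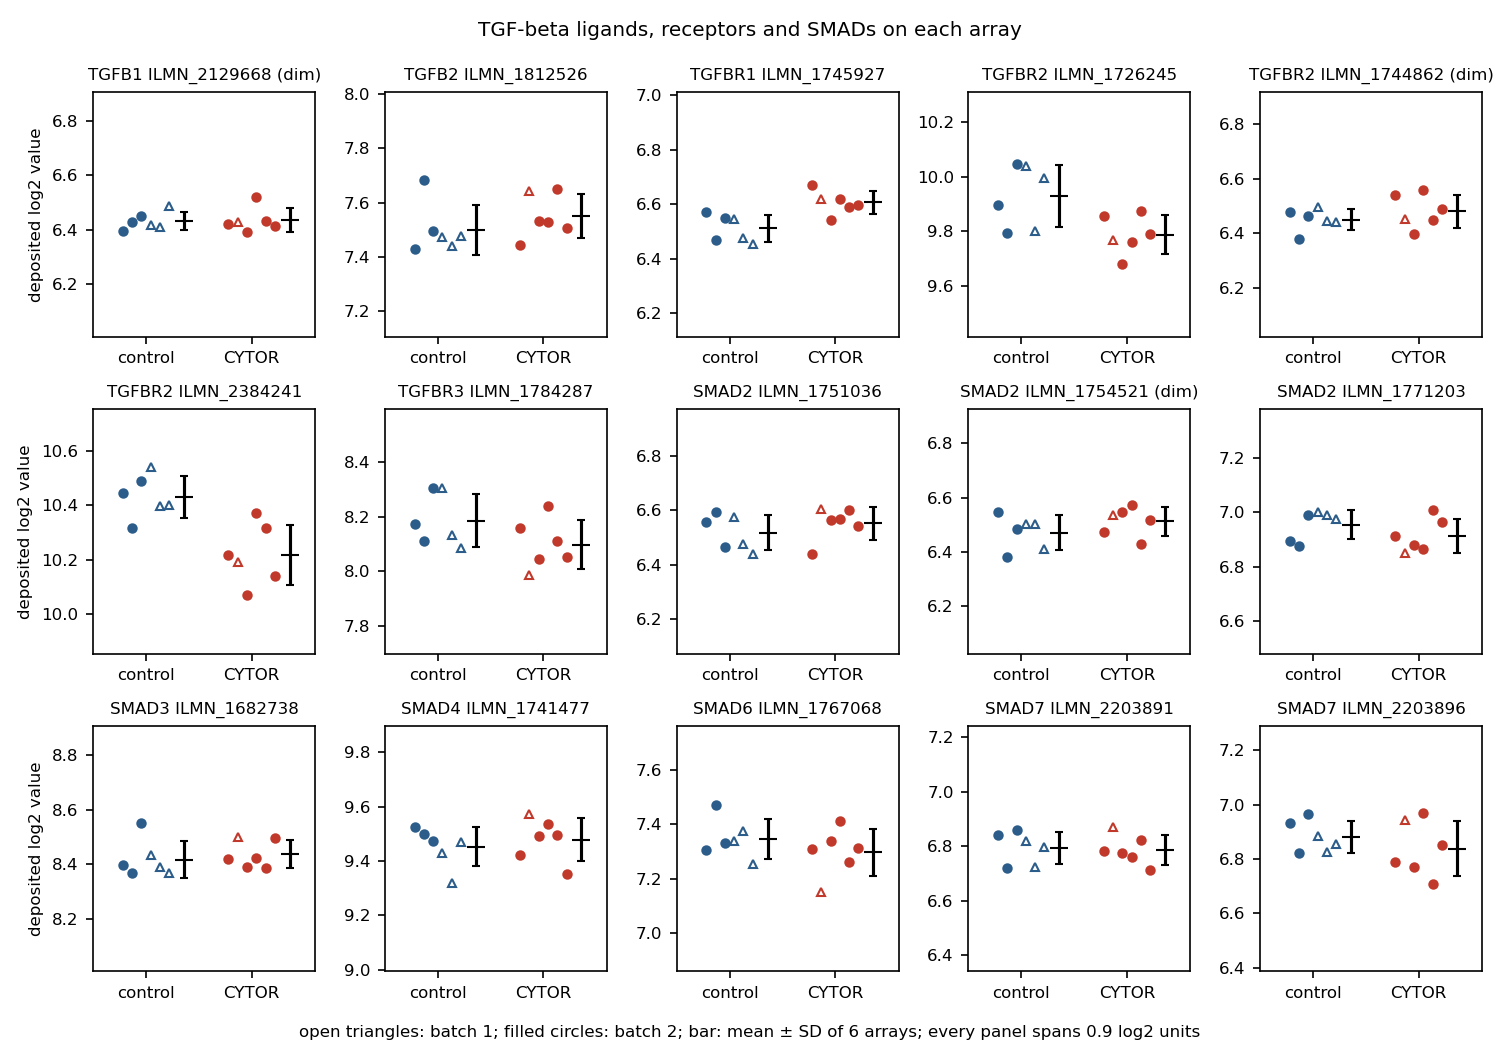
Deposited log2 value (y axis) of each of the 15 probes on the 6 control LNA arrays (blue) and the 6 CYTOR LNA arrays (red), with open triangles for batch 1, filled circles for batch 2, and black marks for mean ± SD. Groups overlap in every panel, and for 2 TGFBR2 probes (ILMN_1726245 and ILMN_2384241) all 6 CYTOR LNA arrays lie below the control median.

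Both ligand genes gave values that did not separate the groups. TGFB2, the ligand that depends most on the co-receptor TGFBR3 for binding, had a lowest, median and highest value of 7.44, 7.53 and 7.65 after the CYTOR LNA and 7.43, 7.48 and 7.68 in controls. The highest value of all belonged to a control array and the groups overlapped almost entirely. The log2 fold change was 0.05 (SE 0.052, limma adjusted p = 0.70), with a 95% interval from -0.06 to 0.16. It was 0.18 in batch 1, which holds a single CYTOR LNA array, and -0.0038 in batch 2. TGFB1, the most widely expressed of the TGF-beta ligands in human tissues, was measured by 1 probe with means of 6.44 ± 0.04 (SD, n = 6) and 6.43 ± 0.03 (SD, n = 6). Both means lay below the median of all probes, so TGFB1 was not above the filter in either group.

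TGFBR2 was the receptor gene with a called change. It lies on chromosome 3 from 30606356 to 30694142 (RefSeq, GRCh38.p14) and spans 87.8 kb. Its 3 probes are annotated to the same transcript record, so the annotation does not tell them apart by isoform. Probe ILMN_2384241 had a lowest, median and highest value of 10.07, 10.20 and 10.37 after the CYTOR LNA and 10.32, 10.42 and 10.54 after the control LNA. All 6 CYTOR LNA arrays lay below the control median, and the groups overlapped at their edges. The mean fell from 10.43 ± 0.08 (SD, n = 6) to 10.22 ± 0.11 (SD, n = 6), a 1.16-fold difference (log2 fold change -0.21, SE 0.061, limma adjusted p = 0.038).

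The second TGFBR2 probe, ILMN_1726245, did not pass. Its lowest, median and highest values were 9.68, 9.78 and 9.87 after the CYTOR LNA and 9.79, 9.95 and 10.05 in controls. Here too every CYTOR LNA array lay below the control median, although 2 control arrays lay within the range of the silenced ones. The log2 fold change was -0.14 (SE 0.062, limma adjusted p = 0.23), with a 95% interval from -0.26 to -0.01. The third probe, ILMN_1744862, had means of 6.48 and 6.45, below the median of all probes.

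Within batches the called TGFBR2 probe differed by -0.25 in batch 1 (1 CYTOR LNA array at 10.19 against a control mean of 10.45) and by -0.19 in batch 2 (means of 10.22 and 10.42). The difference was negative in all 24 alternative fits, from -0.25 to -0.19, but the call was lost in 12 of them (adjusted p from 0.015 to 0.18 over the 24). It was lost with a replicate block (0.057), without a filter on dim probes (0.064), with array quality weights (0.075), within batch 2 (0.079) and within batch 1 (0.18). Among the silenced arrays, leaving out replicate 1 (0.064), 2 (0.099), 3 (0.085) or 6 (0.057) also ended it. Among the controls, replicates 1 (0.094), 3 (0.11) and 4 (0.061) did so. The fits that changed only the filter or the variance model kept the main estimate, so their sign could not differ. Leaving out CYTOR LNA replicate 2 gave the same estimate as batch 2 alone.

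**Figure D2:**
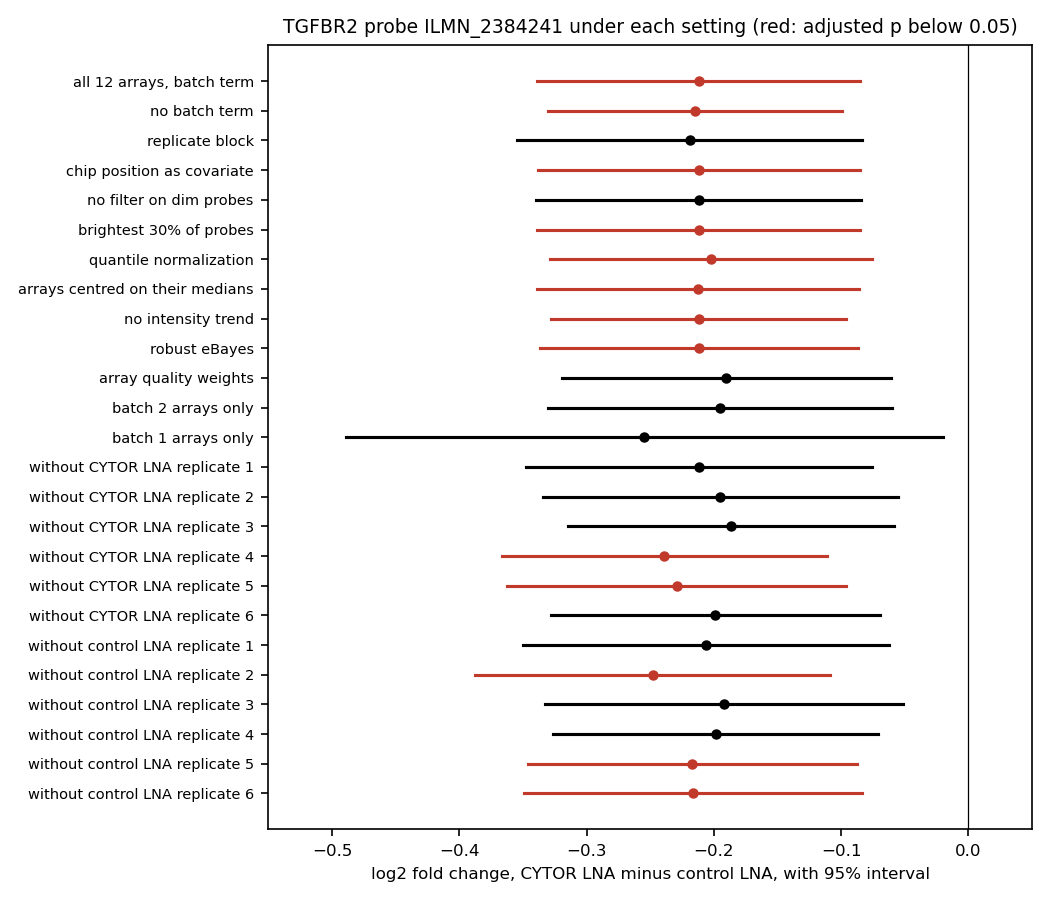
Log2 fold change of TGFBR2 probe ILMN_2384241 (x axis, CYTOR LNA minus control LNA) with its 95% interval under the fit on all 12 arrays and each of 24 alternative fits (y axis). Red marks an adjusted p below 0.05. All estimates lie between -0.25 and -0.19 and 12 alternatives are black.

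TGFBR1, the type I receptor kinase that phosphorylates the SMADs, was measured near the lower limit. Its probe had a lowest, median and highest value of 6.54, 6.61 and 6.67 after the CYTOR LNA and 6.45, 6.51 and 6.57 in controls. All 6 CYTOR LNA arrays lay above the control median, with an overlap between the lowest of them and the highest controls. The log2 fold change was 0.09 (SE 0.033, limma adjusted p = 0.12), positive in batch 1 (0.13) and batch 2 (0.07). Without the batch term it passed the threshold (adjusted p = 0.039). The control mean of 6.51 was just below the median of all probes.

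TGFBR3 (betaglycan), a co-receptor that presents ligand to TGFBR2 and lacks a kinase domain, is the longest of the 10 genes at 226 kb. Its lowest, median and highest values were 7.98, 8.08 and 8.24 after the CYTOR LNA and 8.08, 8.15 and 8.31 in controls. The arrays of both groups were interleaved, with 4 of 6 CYTOR LNA arrays below the control median. The log2 fold change was -0.11 (SE 0.057, limma adjusted p = 0.31), with a 95% interval from -0.23 to 0.01.

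**Figure D3:**
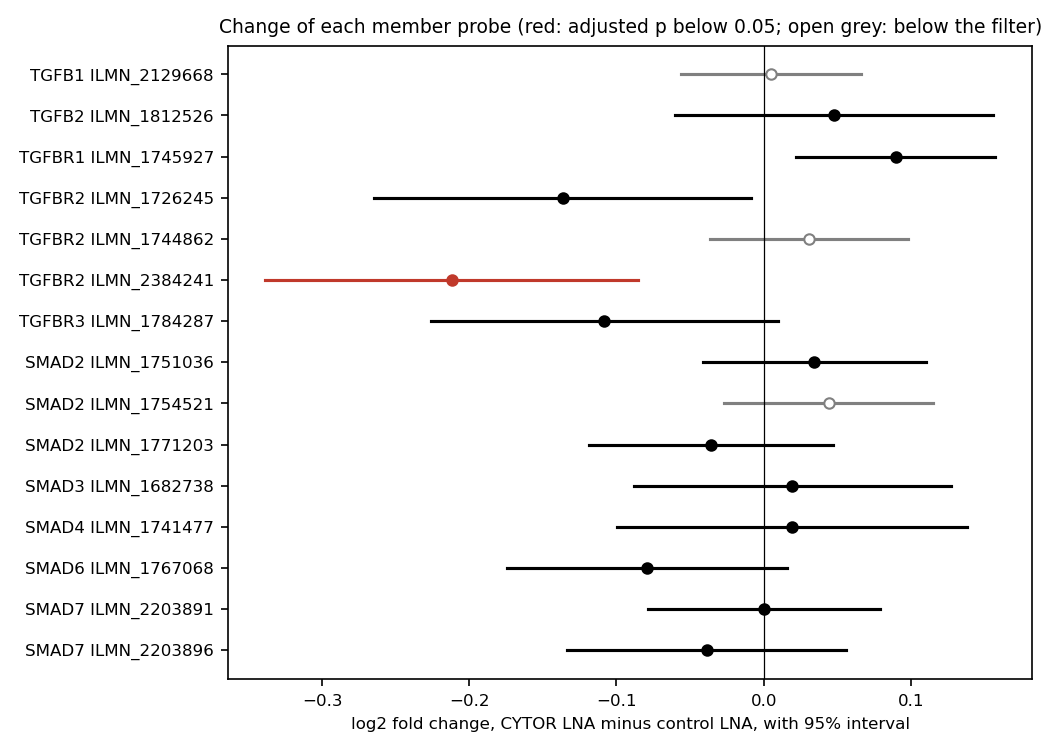
Log2 fold change (x axis, CYTOR LNA minus control LNA) with 95% interval for each of the 15 probes (y axis). Red marks the TGFBR2 probe with adjusted p = 0.038, and open grey marks the 3 probes below the filter, taken from the fit without a filter; 12 intervals include 0.

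None of the 7 tested SMAD probes passed, with adjusted p from 0.375 to 0.999 and log2 fold changes between -0.08 and 0.03. SMAD3, a receptor-activated SMAD that binds DNA directly, had a lowest, median and highest value of 8.39, 8.42 and 8.50 after the CYTOR LNA and 8.37, 8.39 and 8.55 in controls. The groups overlapped over nearly their whole range, and the log2 fold change was 0.02 (SE 0.052, 95% interval -0.09 to 0.13). SMAD4, the partner shared by TGF-beta and bone morphogenetic protein (BMP) signalling, ran from 9.35 through a median of 9.50 to 9.57 after the CYTOR LNA and from 9.32 through 9.47 to 9.52 in controls. Its log2 fold change was 0.02 (SE 0.058, 95% interval -0.10 to 0.14). For both genes the 95% interval leaves out changes above 1.10-fold.

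SMAD2, the other receptor-activated SMAD of the TGF-beta branch, had 3 dim probes. The brightest, ILMN_1771203, had a lowest, median and highest value of 6.85, 6.90 and 7.01 after the CYTOR LNA and 6.88, 6.98 and 7.001 in controls, with a log2 fold change of -0.04 (SE 0.040, adjusted p = 0.70). Probe ILMN_1751036 gave 0.03 (SE 0.037) from means of 6.55 and 6.52. The third, ILMN_1754521, lay below the filter at means of 6.51 and 6.47. The groups overlapped at each of the 3, and the estimates differed in sign.

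The inhibitory SMADs did not separate the groups either. SMAD6, which acts mainly on BMP receptors, had a lowest, median and highest value of 7.15, 7.31 and 7.41 after the CYTOR LNA and 7.25, 7.33 and 7.47 in controls. The log2 fold change was -0.08 (SE 0.046, limma adjusted p = 0.375), at -0.17 in batch 1 and -0.04 in batch 2. The lowest value, 7.15, was the single CYTOR LNA array of batch 1. SMAD7, which recruits ubiquitin ligases to TGFBR1, was measured by 2 probes. ILMN_2203891 ran from 6.71 through a median of 6.78 to 6.87 after the CYTOR LNA and from 6.72 through 6.81 to 6.86 in controls, a log2 fold change of 0.00 (SE 0.038, 95% interval -0.08 to 0.08). ILMN_2203896 gave -0.04 (SE 0.046, 95% interval -0.13 to 0.06). Neither probe separated the groups. Both were dim, at means from 6.79 to 6.88, and there a narrow interval may not bound the change in RNA.

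SMAD3 and SMAD6 are neighbours on chromosome 15, 283 kb apart, and SMAD2, SMAD7 and SMAD4 all lie on chromosome 18. The genes are long: 9 of the 10 exceed the median span of tested genes (27.2 kb), with a median of 84.2 kb. The called TGFBR2 spans 87.8 kb, and SMAD3 (130 kb), SMAD2 (122 kb) and TGFBR3 (226 kb), which did not pass, are longer.

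SMAD proteins bind the palindrome GTCTAGAC, known as the SMAD-binding element, and this sequence was searched in promoter windows of 250 bases before to 50 after each RefSeq start (GRCh38.p14). As a palindrome it reads alike on both strands. Over 35116 windows 71 held it (0.202%). All 10 genes had a window, 25 windows in all, and 1 of these held it, that of SMAD6, a feedback gene of the pathway, at 12 bases before the start. It is shown as the only match among these 25 windows, and the capitals mark the element on the + strand of chr15:66702194-66702261.
SMAD6: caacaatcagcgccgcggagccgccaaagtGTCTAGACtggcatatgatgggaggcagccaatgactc
The 3 windows of SMAD7 and the 2 of TGFBR2 did not contain these letters, nor did the 4 of PMEPA1 or the 1 of DAB2, whose values follow. The match is a description of the sequence, beside the SMAD6 log2 fold change of -0.08 that did not pass.

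Other genes of the pathway were examined as a list of 66, of which 64 had a named probe and 50 were tested by their brightest probe. Of the 50, 3 fell (6.00%), 3 rose (6.00%) and 44 did not pass, where 5.40% of all 12714 tested genes fell and 2.49% rose. The median log2 fold change of the 50 was 0.00, as over all tested genes (0.00), and 14 of the 50 reached an unadjusted p below 0.05, where 21.6% of all tested genes did. The number that fell was 1 with a replicate block and 5 without the batch term.

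The largest change among the 50 belonged to DAB2, an endocytic adaptor that binds TGF-beta receptors and SMADs. Its brightest probe had a lowest and highest value of 7.45 and 7.65 after the CYTOR LNA and 7.98 and 8.22 in controls. No array of either group came within reach of the other, and a second probe (7.21 to 7.32 against 7.47 to 7.61) showed the same. The first probe fell from 8.15 ± 0.09 to 7.56 ± 0.08 (SD, n = 6 each), or 1.54-fold (log2 fold change -0.62, SE 0.051, limma adjusted p = 3.7e-09). The second had a log2 fold change of -0.30 (SE 0.043, adjusted p = 2.7e-05), and so also fell. Both probes passed in all 24 alternative fits.

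**Figure D4:**
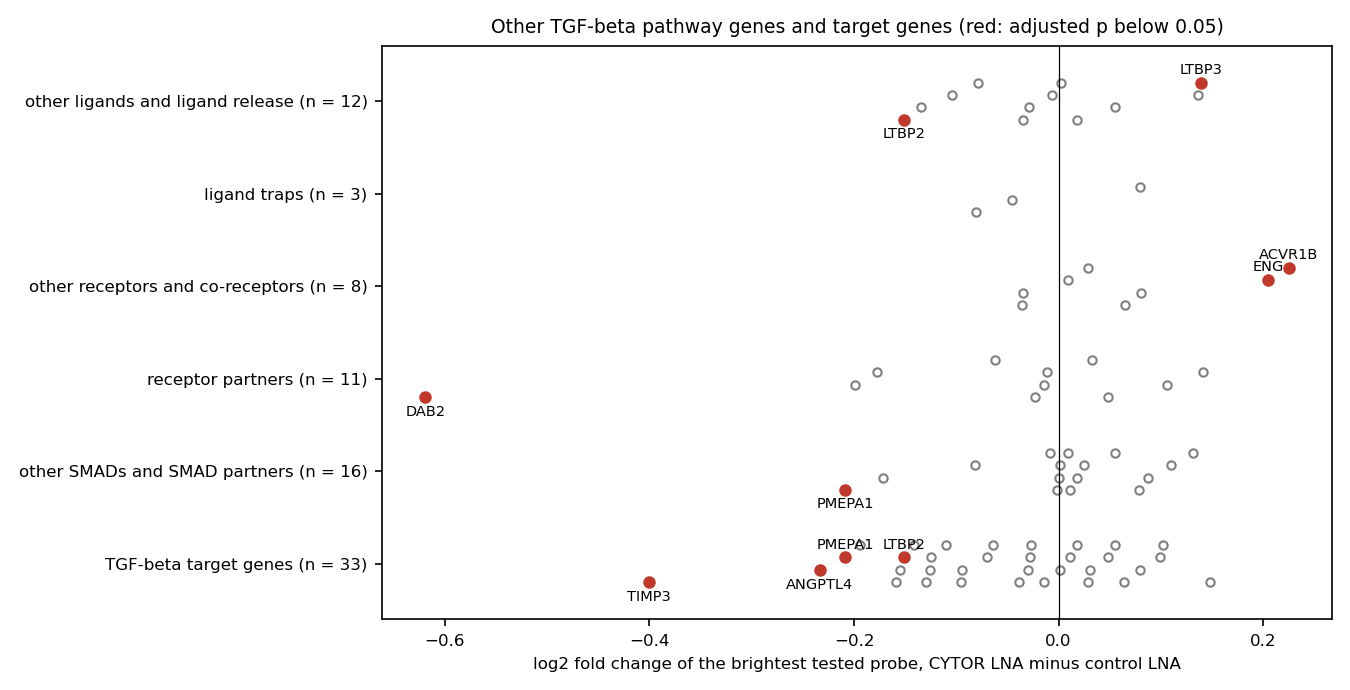
Log2 fold change of the brightest tested probe (x axis, CYTOR LNA minus control LNA) of 50 other pathway genes by role and of 33 target genes (y axis, with the number of genes in each row); vertical scatter within a row has no meaning. Red named points have an adjusted p below 0.05, with DAB2 farthest from 0 at -0.62.

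In the group of other ligands and genes listed for ligand release, 1 of 12 tested genes fell and 1 rose. Among all tested genes the shares were 5.40% and 2.49%. LTBP2, a latent TGF-beta binding protein family member of the matrix, fell from 7.11 ± 0.06 to 6.98 ± 0.05 (SD, n = 6 each) without overlap (log2 fold change -0.15, SE 0.040, adjusted p = 0.021). That call was lost with a replicate block (0.074), within batch 1 (0.42) and without control replicate 1 (0.11). LTBP3, which holds latent TGF-beta in the matrix, rose by 0.14 (SE 0.040, adjusted p = 0.035) with overlapping groups. Its call was lost in 9 of 24 alternatives, within batch 2 among them (0.20), and its 3 other probes, all below the filter, had log2 fold changes between -0.05 and -0.01. The third TGF-beta ligand, TGFB3, had means of 6.66 and 6.67 and a log2 fold change of -0.01 (SE 0.038).

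Among 8 other receptors and co-receptors tested, ACVR1B and ENG rose and 6 did not pass, where 2.49% of all tested genes rose. ACVR1B, the type I receptor for activin, rose from 7.49 ± 0.09 to 7.73 ± 0.10 (SD, n = 6 each; log2 fold change 0.23, SE 0.054, adjusted p = 0.010). The lowest CYTOR LNA array (7.58) was the one of batch 1, where the difference was 0.07 against 0.29 in batch 2, and the call was lost without control replicate 3 (0.064) and within batch 1 (0.75). Its 3 other probes lay below the filter, with log2 fold changes between -0.01 and 0.04. ENG (endoglin), a co-receptor best known from endothelium, rose by 0.20 (SE 0.062, adjusted p = 0.047), and the size of that change depended on single arrays. CYTOR LNA replicate 2, the one of batch 1, stood at 7.76 while the other 5 ran from 7.34 to 7.42 and controls from 7.18 to 7.47. All 6 CYTOR LNA arrays lay above the control median, and the highest control was replicate 3. Without CYTOR LNA replicate 2 the log2 fold change was 0.09 (adjusted p = 0.44), and without control replicate 3 it was 0.29 (0.0018). The call was lost in 15 of 24 alternatives.

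In the group of other SMADs and SMAD partners 1 of 16 tested genes fell and 15 did not pass, where 5.40% of all tested genes fell. PMEPA1, a TGF-beta-induced membrane protein that sequesters SMADs, had a lowest and highest value of 8.66 and 8.85 after the CYTOR LNA and 8.92 and 9.01 in controls, so that the groups did not overlap. The log2 fold change was -0.21 (SE 0.053, adjusted p = 0.017). A second probe gave -0.07 (SE 0.053, adjusted p = 0.57), probe ILMN_1657823 -0.01, and ILMN_1675858, below the filter, 0.05. The call was lost with a replicate block (0.079), within batch 2 (0.070), within batch 1 (0.12) and without CYTOR LNA replicate 2 (0.065). SKIL (SnoN), a repressor induced by TGF-beta, had a log2 fold change of 0.00 (SE 0.033) and SMAD5, a receptor-activated SMAD of the BMP branch, 0.08 (SE 0.054, adjusted p = 0.47). SMAD5 probe ILMN_2371984 gave 0.12 (SE 0.046, adjusted p = 0.12), and ILMN_1761994, below the filter, -0.001. Both SMAD1 probes were below the filter, at means from 6.42 to 6.49.

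Genes that TGF-beta raises in many cell types, or lowers in epithelial cells in the case of the ID genes, formed a second list of 40. Of 33 tested by their brightest probe, 4 fell (12.1%), none rose and 29 did not pass, and 11 reached an unadjusted p below 0.05. Among all tested genes 5.40% fell, 2.49% rose and 21.6% reached that unadjusted p. The list's median log2 fold change was -0.04, beside 0.00 over all tested genes. Because the ID genes are pooled with genes that TGF-beta raises, the counts and the median mix these directions. The number that fell was 2 with a replicate block and 7 without the batch term. The list is not independent of earlier results on these arrays, in which TIMP3 was already known to be lower. PMEPA1 and LTBP2 are on both lists.

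TIMP3, a matrix-bound metalloproteinase inhibitor, fell from 8.18 ± 0.11 to 7.78 ± 0.13 (SD, n = 6 each), a 1.32-fold difference without overlap (log2 fold change -0.40, SE 0.065, adjusted p = 0.00016). The difference was -0.20 within batch 1, where the call was lost (0.25), and -0.48 within batch 2. ANGPTL4, a secreted inhibitor of lipoprotein lipase, had a lowest and highest value of 6.68 and 6.76 after the CYTOR LNA and 6.91 and 6.99 in controls, a fall of 1.18-fold (-0.23, SE 0.033, adjusted p = 3.2e-05). It passed in all 24 alternative fits, although a second probe near the same level gave -0.05 (SE 0.036). Probe ILMN_1674376, below the filter, gave -0.03 from means of 6.46 and 6.49. The called ANGPTL4 probe was itself dim, at means of 6.72 and 6.95, and its fold may not measure the change in RNA.

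CCN2, which encodes the connective tissue growth factor, had 2 bright probes. The brighter had means of 11.01 and 11.20 and did not pass (log2 fold change -0.19, SE 0.060, adjusted p = 0.054), while the other fell from 10.45 ± 0.06 to 10.22 ± 0.12 (SD, n = 6 each; -0.24, SE 0.061, adjusted p = 0.013). The call of the latter was lost with array quality weights (0.061), within batch 2 (0.11) and without CYTOR LNA replicate 2 (0.11). ID1, an inhibitor of helix-loop-helix factors, had a log2 fold change of 0.10 (SE 0.063, adjusted p = 0.41), at -0.15 in batch 1 and 0.20 in batch 2.

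**Figure D5:**
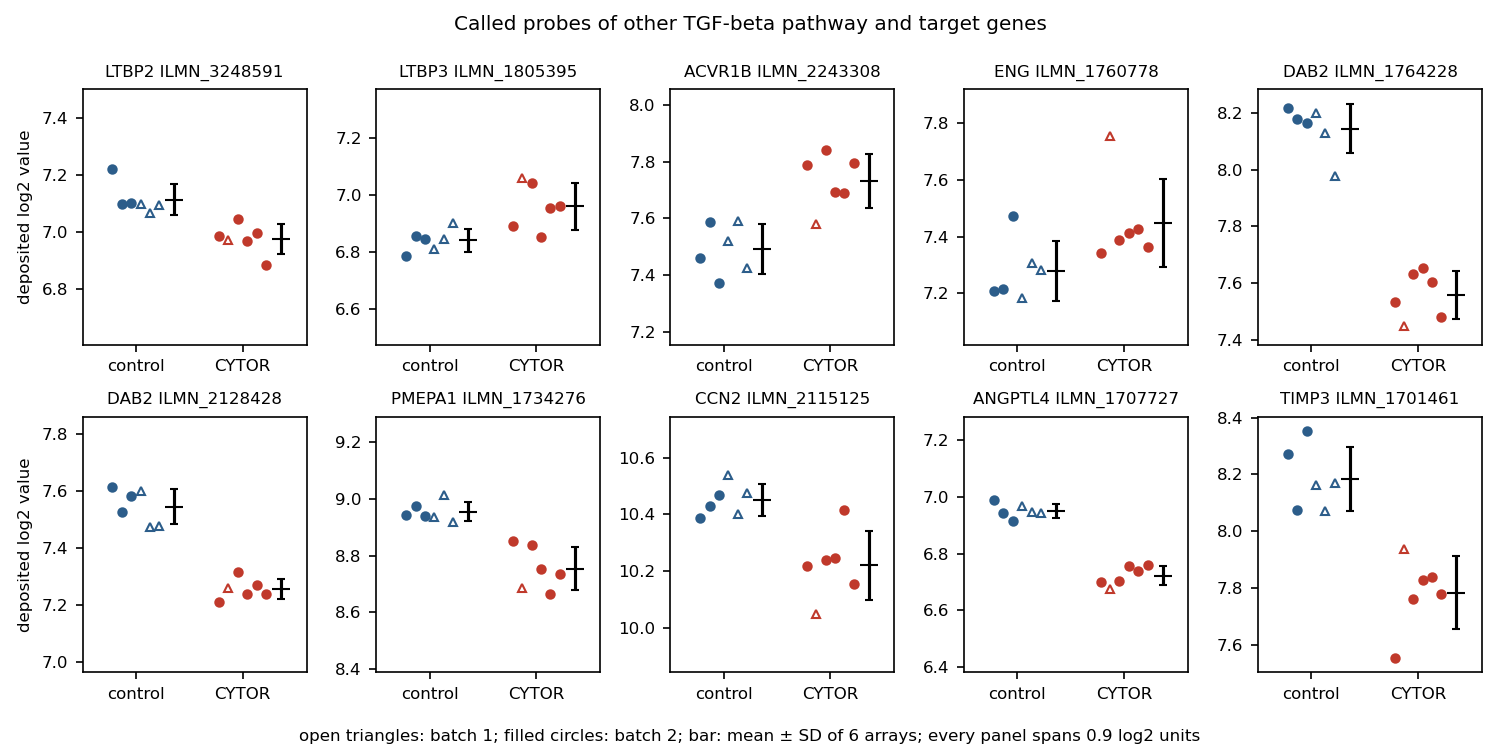
Deposited log2 value (y axis) on each array for the 10 called probes of the pathway and target genes named in the text, control LNA in blue and CYTOR LNA in red, with open triangles for batch 1, filled circles for batch 2 and black marks for mean ± SD. The groups are apart for both DAB2 probes, LTBP2, PMEPA1, ANGPTL4 and TIMP3, and the CYTOR LNA array at 7.76 stands above the rest for ENG.

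The pattern of the called TGFBR2 probe over the 12 arrays was compared with that of the brightest tested probe of every other gene. The measure was the root mean square difference of values centred on each probe's own mean, and its median over all genes was 0.156. The nearest were PURB (0.050), ATP6V1C1 (0.059), LCLAT1 (0.062), KPNA4 (0.063) and NCAPD3 (0.064). For scale, the TGFBR2 values themselves spread by 0.138 about their mean. PURB, a single-stranded nucleic acid binding protein gene, had a log2 fold change of -0.21 (SE 0.057) and KPNA4, a nuclear import receptor gene, one of -0.15 (SE 0.068, adjusted p = 0.23).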

How the data were processed

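Expression was measured on 12 single-colour Illumina arrays. The authors deposited 1 table of normalized values, taken here as log2 because they run from 6.08 to 13.6 with nearly equal array medians. Per the submitters' processing notes lumi was used, with version, transformation and normalization not given in the sources used here. Of 48107 probe rows, 784 without values were left out. Every fold is 2 to the power of a difference and rests on that reading of the scale. A batch term had p below 0.05 for 1.79% of tested probes. Precision is limited by the number of arrays. Whether replicates were separate cultures is not in the labels, and the p-values cover the spread among these arrays, which could be technical.

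Probes were named by the platform annotation, with symbols updated through Entrez identifiers in the RefSeq gene table (GRCh38.p14): 30113 probes carried a single symbol, and all 10 members matched. Probes whose mean reached the median of all probes (23662) were fitted with limma 3.58.1 in R 4.3.3 (lmFit, eBayes with intensity trend; group and batch as terms, 9 residual degrees of freedom), with Benjamini-Hochberg adjustment over all of them at 0.05. Values for dimmer probes come from the fit without a filter. Lists are described by counts and medians over the brightest tested probe of each gene. The fit was tested on simulated data.

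Members, lists and the naming rule were chosen with earlier results of these data known. The rule took all member probes, up to 8 called genes per list by smallest p, 8 preset genes (1 of them not reported here), the CYTOR probes and 5 genes with the pattern nearest to TGFBR2. The replicate numbers were not used as pairs, since deviations of same-numbered samples correlated between -0.23 and 0.27. Alternatives varied the batch term, replicate block, chip position, filter, normalization, variance model, weights, threshold, gene summary and arrays.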

Additional observations from a re-analysis of the deposited data

Results flagged for a closer look

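In 9 of 94 groups of 6 arrays, over the member probes and the probes of the named pathway and target genes, the highest or lowest array stood apart from the other 5 by more than Dixon's critical share of the group's range. Chance gives this in about 1 of 20 groups. For TGFB1, CYTOR LNA replicate 4 was at 6.52 and the others between 6.39 and 6.43, all near background. For TGFB2, control replicate 2 was at 7.68 and the others no higher than 7.496. SMAD2 probe ILMN_1751036 had CYTOR LNA replicate 1 at 6.44 below 6.54 to 6.61, and SMAD3 had control replicate 3 at 8.55 above 8.37 to 8.43. LTBP2 had control replicate 1 at 7.22 above 7.07 to 7.10. An ACVR1B probe below the filter had control replicate 3 at 6.497 above 6.42 to 6.45. ENG had CYTOR LNA replicate 2, the array of batch 1, at 7.76 above 7.34 to 7.42. DAB2 had control replicate 6 at 7.98 below 8.13 to 8.22, still above every CYTOR LNA array. A PMEPA1 probe that did not pass had control replicate 3 at 7.94 above 7.74 to 7.81.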

How the results depend on the processing

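The 12 tested member probes gave 310 log2 fold changes over the alternatives. Of these, 289 kept their sign and 21 did not, the latter all at most 0.087 in size. Settings that changed only the threshold, the filter or the variance model leave an estimate as it is. Their signs are among the 289 and could not have differed. The called TGFBR2 probe stayed negative in every one of its 24 alternative fits, with a replicate block at -0.22, but no member probe fell (0) with the replicate block, without a filter on dim probes, with array weights, within batch 2, within batch 1 or at an adjusted p below 0.01. Leaving out 1 array gave 0 to 1 fallen member probes. Without the batch term 1 member probe, of TGFBR1, rose. Over all tested probes 617 fell at an adjusted p below 0.01. The number risen was 811 without the batch term, 1426 within batch 1, 882 at 0.1 and 162 at 0.01, and ran from 343 to 594 when an array was left out. The replicate block gave 826 fallen and 408 risen probes. In this fit same-numbered samples were blocked; each sample's deviations matched best with its own number in 1 of 6 cases.

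Pathway genes that fell numbered 5 without the batch term, 1 with the replicate block, 6 at 0.1, 1 at 0.01 and 2 to 5 with an array left out. Those that rose numbered 1 without a filter, 1 with array weights, 6 within batch 1, 0 at 0.01 and 1 to 3 with an array left out. Target genes that fell numbered 7 without the batch term, 2 with the block, 2 at 0.01 and 3 to 6 with an array left out. Those that rose numbered 1 within batch 2, 1 within batch 1, 1 when probes were averaged per gene, and 0 to 1 with an array left out.

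Signs of uncalled member probes turned as follows. Within batch 2 the log2 fold change was 0.0062 for SMAD2 ILMN_1771203, -0.015 for SMAD3, -0.039 for SMAD4, -0.037 for SMAD7 ILMN_2203891 and -0.0038 for TGFB2. With array weights it was -0.0076 for SMAD4 and -0.017 for SMAD7 ILMN_2203891. The latter was also -0.0060 without the batch term, -0.00085 with chip position, -0.0021 after quantile normalization and -0.00029 after median centring. SMAD7 ILMN_2203896 was 0.087 within batch 1. With an array left out, SMAD2 ILMN_1771203 ran from -0.059 to 0.0062, SMAD3 from -0.015 to 0.063, SMAD4 from -0.039 to 0.042, SMAD7 ILMN_2203891 from -0.037 to 0.025 and TGFB2 from -0.0038 to 0.11. Fits on batch 1 assume that its lone CYTOR LNA array varies like the controls. The cause of these changes was not tested.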
